A study of Arabidopsis thaliana with 6 samples.

Results

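NAC transcription factors are a large plant family that takes its name from the founding genes NAM, ATAF and CUC. The conserved N-terminal domain pairs the proteins and binds DNA around the core CACG, and the variable C-terminal part activates or represses transcription. Members are known as switches of xylem differentiation, organ boundaries, leaf ageing, abscisic acid and drought responses, and signals from stressed mitochondria, and several are held at membranes until they are released by cleavage. Genes were taken as members where the authors' table names them NAC followed by a number, with or without a leading A or AT, or by one of the classical names VND1 to VND7, NST1, NST2, CUC1, CUC2, CUC3, ATAF1, ATAF2, FEZ, SMB, NTL9, TIP or RD26. The senescence regulators NAC6 (ORE1) and NAP, and NAC042, were left out. This gave 90 of the 26765 rows of the table.

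RNA was sequenced from the aerial parts of Arabidopsis thaliana seedlings aged 17 days, in 3 samples of epic2 mutant plants and 3 samples of wild type plants, all in the Col-0 background and grown under 16 h of light at 24 °C. The table calls its groups epic2 and silex. No label mentions silex. It was read as the wild type by elimination, since the labels hold 2 groups. The sources used here give neither the gene and allele of epic2 nor the number of plants in a sample, and the level of the mutated gene was not examined.

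The authors pooled the replicates of each group into 1 FPKM value, a read count divided by transcript length and by the mapped reads. Levels below are therefore given without a spread of their own, and sequencing depth is unknown. The error of a difference is the standard error that the authors' log2 fold change and test statistic imply, and a gene was called where the authors' q was at most 0.05. All fold changes are epic2 over silex. In RNA from whole shoots, fewer cells of a type and less RNA per cell cannot be told apart.

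Of 8 leaf and shoot markers, the photosynthesis genes LHCB2.1, LHCB4.2, RBCS2B and CA1 were high in both groups. These lay between 2812 and 10689 FPKM in epic2 and between 2834 and 8761 FPKM in silex. GLK1 stood at 183.3 FPKM in epic2 and 165.7 FPKM in silex. KAN1 and STM were much lower, at 7.21 and 5.10 FPKM in epic2 and 8.97 and 5.28 FPKM in silex. CLV3 was not tested, at 0.0524 FPKM in epic2 and 0.179 FPKM in silex. None of these leaf and shoot markers was called. The 4 seed markers and the 5 flower and pollen markers read were each under 1 FPKM in both groups. The 8 root markers summed to 75.0 FPKM in epic2 and 149.9 FPKM in silex, and most of both sums came from PYK10 alone. EXPA7, RHD6 and PLT1 among the 8 were listed at 0 in both groups. SCR stood at 21.5 FPKM in epic2 and 18.6 FPKM in silex and was not called. The root and hypocotyl beta-glucosidase PYK10 stood at 51.8 FPKM in epic2 and 130.9 FPKM in silex and was called lower, and the endodermal gene CASP1 stood at 1.52 FPKM in epic2 and 0.252 FPKM in silex and was called higher. Their part in the NAC results was not tested.

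The comparison asked which NAC transcripts differ between epic2 and wild type shoots. The authors tested 61 of the 90 NAC genes, of which 7 fell and 2 rose in epic2. The largest of these falls were those of NAC3 (AT3G29035), known as ORS1 and a promoter of leaf senescence, which was 5.86-fold lower, and of NAC036, whose overexpression is known to dwarf plants, which was 3.25-fold lower. NAC1, NAC2 (AT3G15510), NAC041, ATAF2 and ATAF1 fell by less, between 1.30-fold and 1.91-fold. NAC13 rose 1.45-fold and NAC003 rose 1.57-fold. The 9 calls are 14.8% of the tested NAC genes, against 18.3% of all 18916 tested rows. By direction, 3.28% of the tested NAC genes were called higher, against 9.51% of all tested rows, and 11.5% were called lower, against 8.8% of all tested rows.

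**Figure D1:**
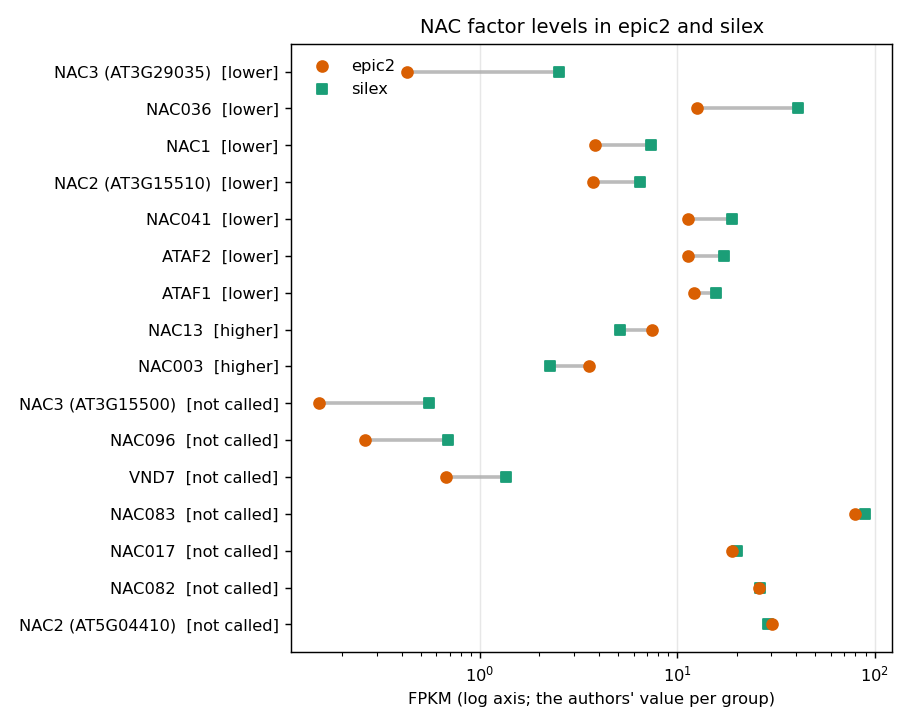
FPKM of epic2 (circles) and silex (squares) on a log axis for the 9 called NAC factors, the 3 uncalled ones nearest to the threshold and the most highly expressed ones, each point being the authors' single value for a group. The gap is widest for NAC3 (AT3G29035), with 0.426 FPKM in epic2 and 2.50 FPKM in silex, while the symbols of NAC082 and NAC017 nearly coincide.

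Among the tested NAC genes 41 of 61 had a fold change below 0 in epic2, which is 67.2% against 47.8% of all tested rows. This tilt was uneven by level. Under 1 FPKM on average, 18 of 21 NAC genes lay below 0, against 56.5% of all rows of that level. From 1 to 10 FPKM it was 14 of 28, against 54.0%, and at 10 FPKM or more 9 of 12, against 41.9%. The 29 untested NAC genes, at most 0.402 FPKM in either group, are outside these counts. A gene under 1 FPKM may have been tested only through the group where it was higher, so the direction at that level is limited by this filter. The median log2 fold change was -0.21 over the NAC genes and 0.01 over all rows. Other large families of transcription factors in the same table give a setting for these counts. Of 47 tested WRKY genes, which mostly act in defence, 32 were below 0, 9 were called lower and 1 was called higher, with a median log2 fold change of -0.22. Of 54 tested MYB genes 38 were below 0, 6 were called lower and 1 was called higher, with a median of -0.26. The differences between the families were not tested.

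Summed over all 90 genes, the NAC factors reached 365.6 FPKM in epic2 and 428.8 FPKM in silex. The largest single part of that gap came from NAC036, at 12.6 FPKM in epic2 and 41.0 FPKM in silex. Another gene, NAC083, held 21.7% of the summed level in epic2 and 20.9% in silex. The remaining NAC genes were mostly expressed at a low level, with a median mean FPKM of 1.76 over the tested NAC genes against 10.9 over all tested rows. Their fold changes were less precise, with a median implied standard error of 0.36 on the log2 scale against 0.16 over all tested rows.

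**Figure D2:**
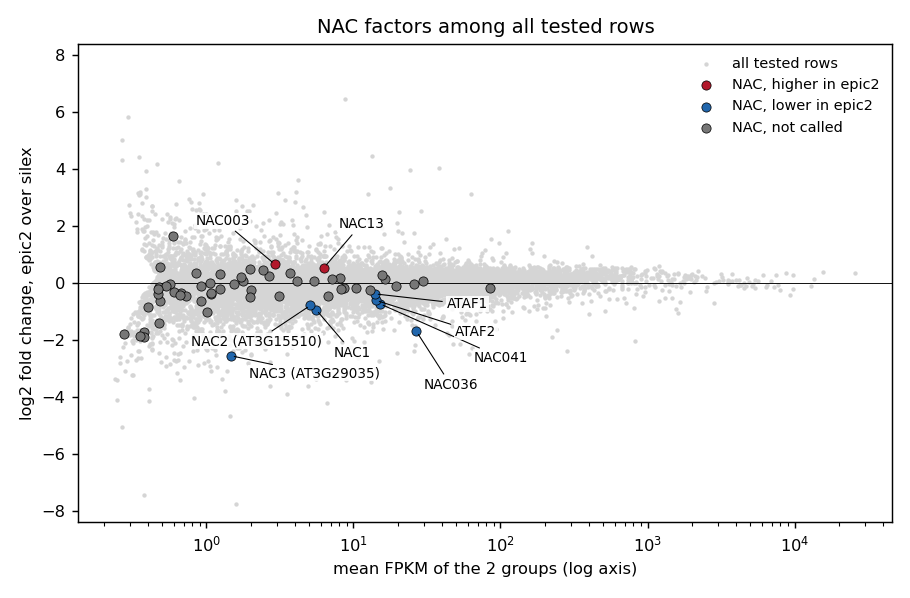
Log2 fold change, epic2 over silex, against the mean FPKM of both groups on a log axis for every tested row with a value above 0 in both groups (grey) and for the tested NAC factors (large points, coloured by call). The called NAC factors have means between 1.46 and 26.8 FPKM, and NAC036 is the lowest point of the family above 10 FPKM.

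Read by level, none of the 21 NAC genes under 1 FPKM on average was called, where 8.63% of all rows of that level were called (4.04% higher and 4.59% lower) and the median implied standard error of the NAC genes was 0.65. Of the 28 NAC genes from 1 to 10 FPKM, 2 were called higher, against 4.1% of rows of that level, and 3 were called lower, against 8.39%. Of the 12 NAC genes of 10 FPKM or more none was called higher, where 14.4% of such rows were, and 4 were called lower, where 9.72% of such rows were. These 4 are NAC036, NAC041, ATAF1 and ATAF2. The other 8 NAC genes of that level, among them NAC083, NAC082 and NAC017, had q values between 0.159 and 0.951 in the authors' deposited table.

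**Figure D3:**
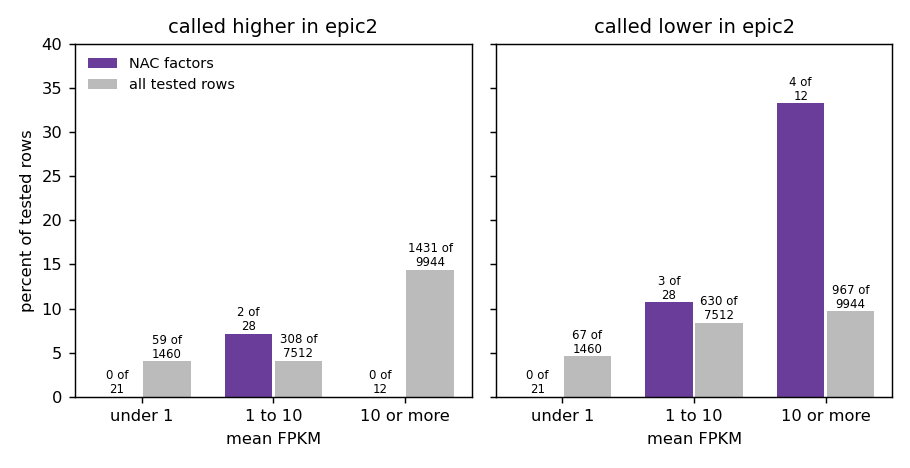
Percent of tested rows called higher (left) and lower (right) in epic2, for NAC factors and for all tested rows, in 3 classes of mean FPKM, with the counts above the bars. The bar of 4 of 12 for NAC factors of 10 FPKM or more called lower is the highest, and none of those 12 was called higher.

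Among the members tied to senescence and seed development, NAC3 (AT3G29035, ORS1) stood at 0.426 FPKM in epic2 and 2.50 FPKM in silex. The authors' deposited table gives a log2 fold change of -2.55 ± 0.49 (implied standard error) and a q of 3.17e-06. Its row lies at chr3:11033665-11035308 of TAIR10, on the plus strand. NAC2 (AT3G15510, also called NAC056 or NARS1), which acts with NAM in the seed coat, stood at 3.75 FPKM in epic2 and 6.45 FPKM in silex. This 1.72-fold fall has a q of 0.00037 in the authors' deposited table, and the row lies at chr3:5243510-5245382. Both were thus lower in epic2, and both were still detected there.

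The other tested genes of this group were not called. ANAC087, which acts in cell death of the root cap, stood at 0.723 FPKM in epic2 and 1.11 FPKM in silex. NAC046, a promoter of chlorophyll breakdown, stood at 0.285 FPKM in epic2 and 0.511 FPKM in silex. All 4 tested genes of the group lay below 0, against 47.8% of all tested rows. Of the senescence regulators that the definition leaves out, NAC6 and NAP were lower as well. NAC6 (ORE1), the paralog of ORS1, stood at 0.604 FPKM in epic2 and 3.40 FPKM in silex. NAP stood at 6.67 FPKM in epic2 and 13.3 FPKM in silex. Both were called lower by the authors. NAC042 (JUB1), which delays ageing, stood at 0.687 FPKM in epic2 and 0.442 FPKM in silex and was not called.

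NAC036 was the most clearly lowered member. It stood at 12.6 FPKM in epic2 and 41.0 FPKM in silex, where it was the second most abundant NAC transcript after NAC083. The authors' deposited table gives a log2 fold change of -1.70 ± 0.14 (implied standard error) and lists its q as 0. Its row lies at chr2:7407123-7408270 on the plus strand. NAC035 (LOV1), a floral repressor grouped with it under growth and flowering, stood at 8.07 FPKM in epic2 and 9.06 FPKM in silex and was not called, with a q of 0.696 in the authors' deposited table. NAC071, which acts in the healing of cut stems, was not tested, at 0.0280 FPKM in epic2 and 0.0239 FPKM in silex.

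The boundary group contains several of the genes that the microRNA miR164 is known to cut, while another known target, NAC6 (ORE1), is among the genes left out. NAC1, which carries auxin signals in lateral root formation, stood at 3.82 FPKM in epic2 and 7.31 FPKM in silex. It fell 1.91-fold, or -0.94 ± 0.18 on the log2 scale (implied standard error), with a q of 6.16e-06 in the authors' deposited table. Its row lies at chr1:20944141-20949281 on the minus strand. CUC2 and CUC3, which keep organs apart at the shoot apex, were not called. CUC2 stood at 0.591 FPKM in epic2 and 0.749 FPKM in silex, and CUC3 at 0.940 FPKM in epic2 and 1.23 FPKM in silex. CUC1 was too low to be tested, with 0.317 FPKM in epic2 and 0.245 FPKM in silex.

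The sites of miR164 are printed because they divide the boundary group by a feature that the definition did not use. The mature miRNA from MIR164a and MIR164b, read from the RefSeq TAIR10.1 annotation, is the same, that from MIR164c differs in its last base, and the capitals mark the seed, bases 2 to 8.
MIR164a and MIR164b: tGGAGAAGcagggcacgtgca
MIR164c: tGGAGAAGcagggcacgtgcg
A search of 27444 coding sequences for the complement of the first form, allowing 3 mismatches over 21 bases, found 6 genes, of which 5 are members. The known target NAC6 (ORE1) was not among the 6, so this search does not find every known target. In the sites below, written as the coding strand reads, capitals mark the bases that differ from the perfect complement.
NAC1, chr1:20947142-20947162, minus strand: AgcacgtAccctgcttctcca
NAC080, chr5:2436958-2436978, plus strand: tTTacgtgccctgcttctcca
NAC100, chr5:24701687-24701707, minus strand: tCTacgtgccctgcttctcca
CUC1, chr3:5111137-5111157, plus strand: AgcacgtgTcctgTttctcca
CUC2, chr5:21902301-21902321, minus strand: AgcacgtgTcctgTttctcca
AT3G12977, chr3:4145631-4145651, plus strand: AgcaTgtAccctgcttctcca

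The boundary gene CUC3 has no such site. CUC1 and CUC2 carry the same site, with 3 mismatches, and NAC1, NAC080 and NAC100 have 2 each. Of the 4 tested members with a site, NAC1 was called and the other 3 were not, where 14.8% of all tested NAC genes were called. NAC080 stood at 0.453 FPKM in epic2 and 0.495 FPKM in silex, and NAC100 at 0.380 FPKM in epic2 and 0.586 FPKM in silex. The 3 uncalled genes had q values between 0.507 and 0.958 in the authors' deposited table, and implied standard errors of 0.56 to 1.03 on the log2 scale, against 0.18 for NAC1. The level of the miRNA itself was not analysed here.

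The stress and abscisic acid group holds the ATAF genes and their relatives, which respond to wounding, drought and abscisic acid. ATAF2, which responds to wounds and pathogens, stood at 11.3 FPKM in epic2 and 17.2 FPKM in silex and fell 1.52-fold, with a q of 0.000385 in the authors' deposited table. ATAF1, a regulator of abscisic acid synthesis and leaf ageing, stood at 12.1 FPKM in epic2 and 15.8 FPKM in silex and fell 1.30-fold, with a q of 0.0318 in the authors' deposited table. By the mean of both groups these were the most highly expressed genes of the stress group, while in epic2 alone NAC102 was above ATAF2. Their rows lie at chr5:2856740-2860262 and chr1:268330-270775.

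Each of the ATAF genes has a close relative of similar or lower level that was not called. By coding sequence ATAF1 was closest among the members to NAC032, with 63.6% identity, and ATAF2 to NAC102, with 63.7% identity. NAC032 stood at 4.14 FPKM in epic2 and 3.27 FPKM in silex, and NAC102 at 11.9 FPKM in epic2 and 14.1 FPKM in silex. NAC032 was the single tested gene of the group above 0, so 87.5% lay below 0, against 47.8% of all tested rows. The difference between the relatives was not tested. RD26 (dehydration-responsive) stood at 5.69 FPKM in epic2 and 7.80 FPKM in silex, with a q of 0.307 in the authors' deposited table.

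Of the 3 uncalled NAC genes nearest to the threshold, 2 belong to the same group. NAC3 (AT3G15500, also called NAC055), which acts in jasmonate and drought responses, stood at 0.152 FPKM in epic2 and 0.554 FPKM in silex, with a q of 0.110 in the authors' deposited table. NAC096, a partner of abscisic acid response factors, stood at 0.260 FPKM in epic2 and 0.685 FPKM in silex, with a q of 0.154 there. Both had point estimates of more than 2-fold with implied standard errors of 0.88 and 0.72 on the log2 scale, and neither was called.

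Membrane-tethered factors are released by cleavage under stress and move to the nucleus. NAC13 (AT1G32870, also called ANAC013), which sits at the endoplasmic reticulum and relays signals of mitochondrial dysfunction, rose in epic2. It stood at 7.46 FPKM in epic2 and 5.14 FPKM in silex, a 1.45-fold rise, or 0.54 ± 0.17 on the log2 scale (implied standard error), with a q of 0.00876 in the authors' deposited table. Its row lies at chr1:11911679-11914735 on the plus strand.

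The other 9 tested membrane-tethered genes were not called. NAC2 (AT5G04410, also called NAC078), which induces proteasome subunits, stood at 30.3 FPKM in epic2 and 28.7 FPKM in silex and was the most abundant of them. NAC017, which acts in the same mitochondrial signal as NAC13 and was its closest relative among the members at 53.9% identity of coding sequence, stood at 18.8 FPKM in epic2 and 20.0 FPKM in silex. NAC053, the partner of NAC078 in proteasome control, stood at 5.54 FPKM in epic2 and 5.23 FPKM in silex. Of the 10 tested genes of the group 6 lay above 0. The other 40% lay below 0, which is near the 47.8% of all tested rows. The median log2 fold change was 0.08, against 0.01 over all rows.

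The xylem and secondary wall group had no called gene among 11 tested. Of all tested rows 18.3% were called, and 12.5% of rows from 1 to 10 FPKM, the level of most of the group. With 11 genes, finding none called is not far from those shares. The group holds the VND master switches of vessel formation, the secondary wall factors beside them, and the VND7 partner NAC083. NAC083 (VNI2), which restrains VND7 and links abscisic acid to leaf ageing, stood at 79.4 FPKM in epic2 and 89.5 FPKM in silex, the highest level of any NAC gene in both groups, with a q of 0.159 in the authors' deposited table. VND7, the switch of protoxylem vessels, stood at 0.675 FPKM in epic2 and 1.35 FPKM in silex, with an implied standard error of 0.47 and a q of 0.115 there. VND6 (NAC101), the switch of metaxylem vessels, stood at 1.64 FPKM in epic2 and 2.30 FPKM in silex. These were the lowest fold changes of the VND genes, while VND2 and VND5 lay slightly above 0. Of the 11 genes 8 lay below 0, which is 72.7% against 47.8% of all tested rows and 54.0% of rows from 1 to 10 FPKM. The 5 xylem markers, which are cysteine proteases of vessel cells and cellulose synthases of the secondary wall, summed to 63.7 FPKM in epic2 and 100.5 FPKM in silex, with 4 called lower, and their part in these values was not tested. Apart from NAC083, whose implied standard error was 0.09, the implied standard errors of the group ranged from 0.30 to 0.51 on the log2 scale.

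The remaining role groups had no called gene, where 18.3% of all tested rows were called. None of the 5 phloem genes was called, the highest being NAC057 with 2.33 FPKM in epic2 and 1.65 FPKM in silex. The phloem markers APL, SUC2 and SEOR1 were not called either. Among genes of DNA damage and of stress in protein or ribosome making, NAC082, which signals nucleolar stress, stood at 25.9 FPKM in epic2 and 26.2 FPKM in silex. The DNA damage factor NAC044 stood at 0.903 FPKM in epic2 and 0.290 FPKM in silex and was not called, with an implied standard error of 0.87. The 4 root cap factors were not tested. SMB stood at 0.0144 FPKM in epic2 and 0.0371 FPKM in silex, FEZ was listed at 0 in epic2 and at 0.0137 FPKM in silex, and BRN1 (NAC015) and BRN2 (NAC070) were listed at 0 in both groups.

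Of the 13 tested genes without an assigned role, NAC041 fell and NAC003 rose. NAC041 stood at 11.4 FPKM in epic2 and 18.9 FPKM in silex, 1.66-fold lower with a q of 0.00118 in the authors' deposited table. Its closest member by coding sequence was NAC083, at 59.8% identity. NAC003 stood at 3.58 FPKM in epic2 and 2.27 FPKM in silex, 1.57-fold higher with a q of 0.0459 in the authors' deposited table. That rise was no longer called when p-values were adjusted over all tested rows of the table, with an adjusted p of 0.0609. The most abundant genes without a role were NAC052 and NAC050. NAC052 stood at 17.1 FPKM in epic2 and 15.5 FPKM in silex, and NAC050 at 17.1 FPKM in epic2 and 14.0 FPKM in silex.

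**Figure D4:**
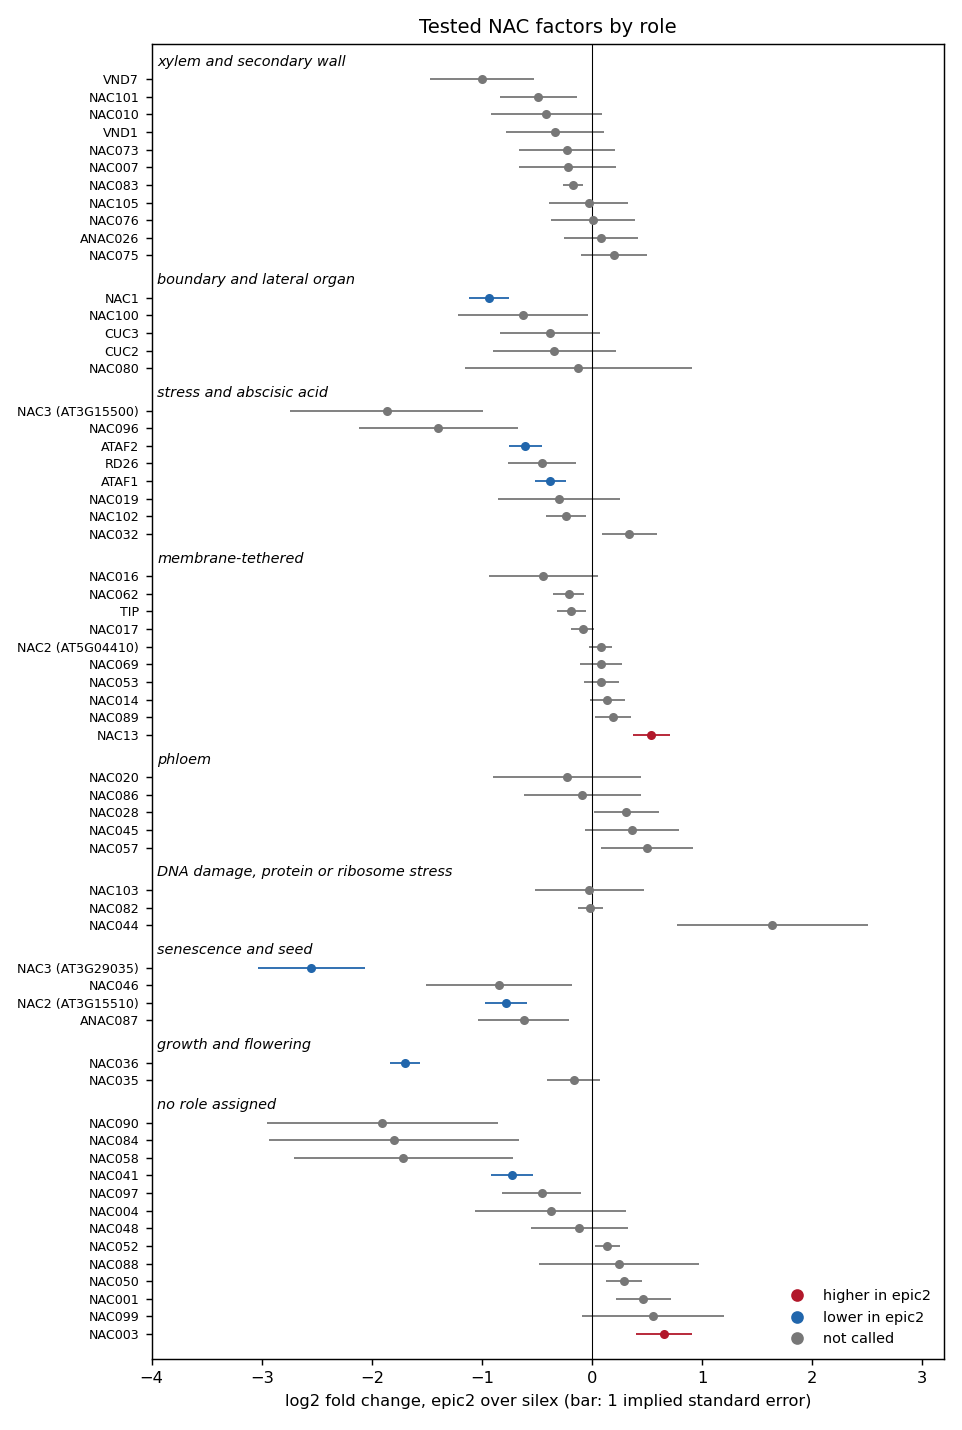
Log2 fold change, epic2 over silex, of the 61 tested NAC factors ordered by known role, with bars of 1 implied standard error and colours for the authors' calls. The 7 lowered genes lie in 5 groups, no xylem or phloem factor was called, and the bars of the uncalled genes at the left edge are long.

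The 29 untested genes had at most 0.402 FPKM in either group, and 8 of them are listed at 0 in both. NST2 (NAC066), a switch of fibre walls, had the highest value among them, with 0.402 FPKM in epic2 and 0.0422 FPKM in silex. Of 115 genes whose RefSeq product names a NAC protein, 23 lie outside the definition beside the 3 left out. Of these 17 have a row of their own, 4 were tested (SOG1, NAM, NTM1 and XND1) and none was called. NTL9 shares a row with HMGB5 and NAC027 with AT1G64100, so neither is a member, and NST1 has its row under the name EMB2301 and was not tested.

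Calls were also read along the chromosomes. Of 11 pairs of members within 10000 bases of each other, none had both genes called. Several of these pairs hold an untested gene and could not have both called. Of the tested NAC genes 14.8% were called, so finding none among so few pairs says little about neighbours. NAC2 (AT3G15510) was called lower beside NAC3 (AT3G15500), which was not called, and NAC003 was called higher beside NAC004, at 0.410 FPKM in epic2 and 0.531 FPKM in silex, which was not. The 7 lowered genes lie on chromosomes 1, 2, 3 and 5 and both raised genes on chromosome 1. NAC003 shares 1.10% of its 50-base windows with NAC005, which stood at 0.0798 FPKM in epic2 and 0.0160 FPKM in silex, and no other called member shares such a window with another gene.

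The overlap with genes on the opposite strand touched 4 called genes, namely ATAF1, NAC13, NAC1 and ATAF2, by 28, 20, 148 and 158 bases in the annotation. Whether the libraries kept the strand is not stated in the labels, and reads in these stretches cannot be told apart. None of the partners was called. The partner of NAC1, AT1G56000, stood at 14.3 FPKM in epic2 and 12.7 FPKM in silex, and that of ATAF1, AT1G01725, at 18.9 FPKM in epic2 and 20.8 FPKM in silex.

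Genes that NAC factors are known to control or work beside were read from 7 lists. Of 23 tested genes of secondary walls and xylem, 7 were called lower and none higher, against 8.8% of all tested rows called lower, and the median log2 fold change was -0.35 against 0.01 over all rows. XCP1 and XCP2 are cysteine proteases that digest the contents of dying vessel cells. XCP1 fell to 15.4 FPKM in epic2, against 30.04 FPKM in silex, and XCP2 to 32.5 FPKM in epic2, against 50.4 FPKM in silex. KNAT7, a repressor of wall thickening, stood at 2.38 FPKM in epic2 and 4.05 FPKM in silex, and the ribonuclease RNS3 at 5.79 FPKM in epic2 and 9.35 FPKM in silex, and both were called lower. The other 3 were the laccase LAC17 and the cellulose synthases CESA7 (IRX3) and CESA8 (IRX1). CESA7 and CESA8 were near the threshold, with q values of 0.0395 and 0.0432 in the authors' deposited table. All 5 xylem markers are in this list, and 4 of its 7 calls are the marker calls given above, so both counts rest on the same rows. The VND switches above these genes in the pathway were not called, as described, and their values did not all lie lower in epic2. VND7 stood at 0.675 FPKM in epic2 and 1.35 FPKM in silex, and VND6, VND1 and VND4 also lay below 0. VND3 stood at 1.52 FPKM in epic2 and 1.55 FPKM in silex. VND2 stood at 1.06 FPKM in epic2 and 1.05 FPKM in silex, and VND5 at 1.81 FPKM in epic2 and 1.71 FPKM in silex. The implied standard error of VND7 was 0.47, and the difference between the switches and the listed genes was not tested.

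Of 13 tested genes of mitochondrial retrograde signalling, 3 were called higher and none lower, against 9.51% of all tested rows called higher and 8.8% called lower. The median log2 fold change of the list was 0.38, against 0.01 over all rows. UPOX (AT2G21640), a protein induced by oxidative stress, stood at 16.6 FPKM in epic2 and 8.32 FPKM in silex. The alternative NADH dehydrogenase NDA1 stood at 138.9 FPKM in epic2 and 92.8 FPKM in silex, and the sulfotransferase SOT12 at 14.5 FPKM in epic2 and 11.2 FPKM in silex. The alternative oxidase AOX1A, the classical reporter of this signal, was not called, with 10.1 FPKM in epic2 and 10.4 FPKM in silex.

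NAC13 and NAC017 are known to bind the mitochondrial dysfunction motif. It was searched on both strands, as CTTG, any 5 bases and then CAAG or CACG, in the 300 bases before each gene start, where 1.37% of 27443 protein-coding genes hold it. Of 17 listed retrograde genes 4 hold it, with UPOX and NDA1 but not SOT12 among the 3 raised ones. The list gathers known targets of factors that bind this motif, so its presence there is not independent of the list. The windows are shown in TAIR10.1, read along the gene's strand, with the motif in capitals.
UPOX, chr2:9254317-9254349, plus strand: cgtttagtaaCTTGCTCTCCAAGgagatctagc
NDA1, chr1:2204024-2204056, plus strand: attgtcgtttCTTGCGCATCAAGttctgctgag
UGT74E1, chr1:1702835-1702867, minus strand: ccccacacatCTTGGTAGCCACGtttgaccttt
AT2G04050, chr2:1339661-1339693, minus strand: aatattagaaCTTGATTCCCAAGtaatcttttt
AT2G04050, chr2:1339602-1339634, minus strand: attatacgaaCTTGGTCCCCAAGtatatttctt
Of the 90 NAC genes 4 hold the motif in the same window, and none of these was called, where 14.8% of the tested NAC genes were. With 4 genes this says little, and NAC010, NAC044 and NAC045 lie under 1 FPKM on average, where no NAC gene was called.
NAC010, chr1:10010026-10010058, plus strand: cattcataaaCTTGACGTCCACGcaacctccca
NAC017, chr1:12451285-12451317, plus strand: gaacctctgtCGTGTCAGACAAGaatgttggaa
NAC044, chr3:229000-229032, plus strand: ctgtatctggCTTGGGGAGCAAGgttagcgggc
NAC045, chr3:738650-738682, minus strand: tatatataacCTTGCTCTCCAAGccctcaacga

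The VND factors are known to act on the tracheary element motif, searched on both strands as CTT, any base, AAAGC, any base and A. It lies in the same window of 0.430% of all protein-coding genes, of none of the 90 NAC genes and of 4 of the 28 listed wall and xylem genes. XCP1 is the single one of these 4 that was called, where 30.4% of the tested genes of that list were called lower. The list gathers genes known downstream of or beside NAC factors, so the motif's presence there is not independent of the list.
XCP1, chr4:16810397-16810427, plus strand: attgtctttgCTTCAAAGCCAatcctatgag
CESA4, chr5:17714360-17714389, plus strand: tacataataaCTTGAAAGCTActctaagtt
MC9, chr5:1153667-1153697, plus strand: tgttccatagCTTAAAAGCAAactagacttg
LBD30, chr4:89810-89840, plus strand: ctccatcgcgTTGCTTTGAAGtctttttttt
The NAC core CACG itself lies in the window of 50.5% of all protein-coding genes and of 53 of the 90 NAC genes.

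The other lists gave mixed counts. For all of them the shares of all tested rows to read the counts against are 9.51% called higher and 8.8% called lower. Of 17 stress and abscisic acid genes 4 were called higher, which is 23.5%, and 2 lower, which is 11.8% and near that share. The abscisic acid reporter RD29B (LTI65) stood at 0.611 FPKM in epic2 and 0.156 FPKM in silex and the jasmonate synthesis gene LOX2 at 555.2 FPKM in epic2 and 286.4 FPKM in silex, both called higher. The defensin PDF1.2, at 0.449 FPKM in epic2 and 6.62 FPKM in silex, and the abscisic acid synthesis gene NCED3, at 1.04 FPKM in epic2 and 1.73 FPKM in silex, were called lower. The nitrilase NIT2 and the dehydrin RAB18 were the other raised ones.

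Of 14 tested boundary and meristem genes 1 was called lower, which is 7.14%, and 2 higher, which is 14.3%, against 8.8% and 9.51% of all tested rows. LSH3 was the one called lower, with 4.005 FPKM in epic2 and 8.31 FPKM in silex. The CUC repressor TCP4, at 39.1 FPKM in epic2 and 27.3 FPKM in silex, and the leaf gene AS1, at 45.3 FPKM in epic2 and 33.5 FPKM in silex, were called higher. Of 13 DNA damage genes 2 were called higher, which is 15.4% against 9.51% of all tested rows. GMI1, at 2.37 FPKM in epic2 and 1.48 FPKM in silex, and TSO2, at 62.2 FPKM in epic2 and 51.2 FPKM in silex, were these. Of 19 tested proteasome genes all lay above 0, where 47.8% of all tested rows lay below 0. Their median log2 fold change was 0.13, and CDC48B, PAD1 and PAF1 were called higher. These are 15.8% of the tested proteasome genes, against 9.51% of all tested rows and 14.4% of rows of 10 FPKM or more, which is near that share. None of the 11 unfolded protein response genes was called.

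**Figure D5:**
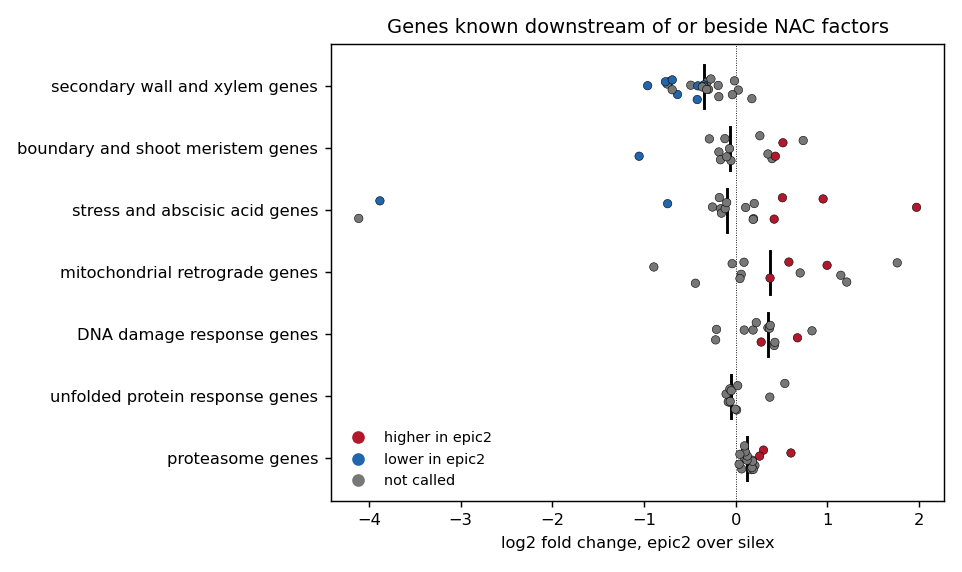
Log2 fold change, epic2 over silex, of the tested genes of 7 lists known downstream of or beside NAC factors, with a black line at each list's median and colours for the authors' calls. Secondary wall genes lie mostly left of 0 with 7 called lower, and retrograde genes mostly right of 0 with 3 called higher.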

How the data were processed

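Total RNA from the aerial parts of 3 epic2 and 3 wild type samples was made into TruSeq version 2 libraries, per the labels' protocols. TopHat, Cufflinks, Cuffdiff and the TAIR10 build are named, without versions, in the submitters' processing notes. The authors deposited 1 table of 26765 rows with 1 FPKM value per group. The same deposited table gives the authors' log2 fold change, test statistic (a score), p-value and q-value. Since p-values matched a two-sided normal test of the deposited statistic, the error of a log2 fold change was computed as its size over that of the statistic. The labels call the samples biological replicates, do not say whether they were grown apart, and p-values may then measure technical spread. Depth is unknown.

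Rows were joined by name to the TAIR10.1 RefSeq annotation, 24982 by name and 119 by position. The snRNP gene smB, which matches SMB only when case is ignored, was left out. Of 61 tested members, those with the authors' q of at most 0.05 were called. Lists are described by counts and medians. On the log2(FPKM + 1) scale, used to rank list genes and for medians in the closing section, changes of low genes are understated.

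Members, roles, lists and tests were chosen with earlier results of these data known. Genes are named where called, where highest in their role group or the family, where among the 3 uncalled genes nearest to the threshold, and, in lists, for up to 4 called genes by size of change. Other genes were named after their values were seen, as were the motifs described, out of 14 spellings searched. Alternatives were other thresholds, a minimum level, a minimum fold, other adjustments, centring and another pseudocount. Computation used Biopython 1.88, matplotlib 3.10.9, scipy 1.17.1, numpy 2.4.6 and pandas 2.3.3 under Python 3.11.15. The Benjamini-Hochberg adjustment used among the alternatives was tested on simulated data, where it recovered 76.5% of 200 changes of 2-fold. The authors' own calling was not tested in this way.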

Additional observations from a re-analysis of the deposited data

How the results depend on the processing

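Depth is unknown, and the table holds no value per sample, so leaving out a replicate could not be run. No paired analysis was possible because the table gives 1 pooled value per group. Of 2 NAC genes called higher, 1 was called at a q of 0.01, 1 with Benjamini-Hochberg adjustment over all tested rows, 1 with fold changes centred on the median of rows of 1 FPKM or more, 0 with Bonferroni adjustment and 0 at a minimum of 2-fold on the log2(FPKM + 1) scale. NAC003 was the one lost, with an adjusted p of 0.0609 over all tested rows and 0.0716 after centring. Of 7 called lower, 6 were called at a q of 0.01, 3 with Bonferroni adjustment and 2 at 2-fold. ATAF1, with a q of 0.0318 in the authors' deposited table, was the one lost at a q of 0.01. The centring shift was 0.02 (log2). At a q of 0.01, 4 of 7 secondary wall genes were called lower, 1 of 4 stress genes higher and 1 of 2 lower, and 0 of 2 DNA damage genes higher. The count of lowered secondary wall genes was 5, against 7, under Benjamini-Hochberg, where the counts of the other lists stayed the same. At a q of 0.10, 11 secondary wall genes and 2 boundary genes were called lower. The median log2(FPKM + 1) change of tested NAC genes, -0.12, kept its sign under a minimum level, a pseudocount of 0.1 FPKM and centring. No value changed sign under the alternatives run. Chosen after seeing the data, a window of 250 bases before to 50 after the gene start held the mitochondrial dysfunction motif in 8 retrograde genes, against 4, with all 3 raised ones among them, and in 4 NAC genes. Allowing 4 mismatches gave 11 genes with a miR164 site, against 6. The cause of each change in a count was not tested.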
